A study of Mus musculus with 7 samples.

Results

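The liver X receptors (LXRs) sense oxidised cholesterol, and the 10 genes described here are the 2 receptors and the genes of cholesterol export and lipid remodelling that are commonly read as their targets. They are Nr1h3, Nr1h2, Abca1, Abcg1, Scarb1, Apoe, Arl4c, Mylip, Lpcat3 and Srebf1, chosen by name and each found once among the 35641 genes of the deposited table. RNA came from cells sorted as neutrophils (CD45+ CD11b+, low in Ly6C and carrying Ly6G) from the lungs of female C57BL6 mice. There were 4 libraries of a group named HF and 3 of a group named LF. Neither name is spelled out in the labels, which give no age, diet or further treatment, while the study's title concerns oxidative stress of neutrophils in obesity. Recovered reads ranged from 13943173 to 16599658 per HF library and from 16974428 to 18983351 per LF library.

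LXRs sit on DNA as partners of the retinoid X receptors. Without an oxysterol they hold corepressors at their targets, and with one they exchange them for coactivators, so that a cell loaded with cholesterol makes more of the pumps that export it. In macrophages this loop is a main route of cholesterol efflux to apolipoproteins and high-density lipoprotein, and in neutrophils ABC transporters and LXRs have been linked to cell number, clearance and activation.

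The cell identity of the LF libraries bears on every value below. Ly6g, the gene of the sort marker, stood at 4431, 1301, 2378 and 4944 normalized counts in HF1 to HF4 and at 0.749, 0 and 8.22 in LF6, LF7 and LF8. Of 14 neutrophil markers 13 were higher in HF, with summed levels of 438797 to 596450 in HF and 13860 to 15428 in the LF libraries. Of 15 markers of monocytes and interstitial macrophages, HF had 11 lower, with sums of 29960 to 39492 against 127864 to 136303, and every one of them had reads in both groups. The LF libraries therefore went against their label and are called the libraries labelled LF. A difference between groups cannot be told apart here from a difference in which cells were sequenced, nor fewer cells of a type from less RNA per cell. HF1 also stood apart from the other HF libraries in several genes. The alveolar macrophage markers summed to 34233 in HF1 and 9445 to 11676 in HF2 to HF4. Chil3 gave most of the sum (30151 in HF1 against 6508 to 9035). Atp6v0d2 (703 against 21.3 to 51.3), Krt79 (193 against 0 to 46.2) and Ctsk (189 against 0 to 44.9) were also highest in HF1. So were Fabp1 (112 against 30.9 to 56.4) and Ear1 (248 against 28.0 to 205). Siglecf (1318) and Ear2 (1074) in HF1 lay among the other HF values. Fabp4 (141) and Pparg (105) were lowest in HF1, Marco was at 0 in all 4, and Car4 was at 0 in HF1 and HF3. The neutrophil granule gene Ltf stood at 64164 in HF1 against 12474 to 20498. Camp (17783 against 5131 to 6465) and Ngp (67282 against 19659 to 26685) were highest there too, while Lcn2 (28265) was below HF4 (28817). Without HF1 the members counted as past the threshold were 3 higher and 6 lower, against 3 and 5 with all libraries. Of all 14936 genes tested, 3887 were then higher and 4323 lower, against 3917 and 4294 with all libraries.

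Promoters of 8 of the 10 genes were matched in RefSeq (GRCm38.p6), with 13 listed starts in all, and Abcg1 and Scarb1 were not matched. They were searched for the classical LXR response element, a direct repeat of AGGTCA with 4 bases between the copies, on both strands of the 250 bases before each start. The perfect repeat was in none of the 13 windows and in 0.0152% of all 32851 windows of that length. Allowing 3 mismatches among the 12 fixed letters, 3 of the 13 windows held a match, in Arl4c, Abca1 and Srebf1, against 18.5% of all windows. A narrower form, GGTTA and GGTCA with 5 bases between them, was in 2 of the 13 windows, those of Abca1 and 1 start of Srebf1, and in 0.0457% of all windows. This form overlaps the first motif, and it was written with the Abca1 promoter in view, so that its presence there is not a finding. The fatty acid synthase gene Fasn, from the list of further LXR targets, held it too. The sites are shown because they set side by side 3 genes of the pathway that share these letters and whose RNA levels did not move alike. Capitals mark the fixed letters, and each site reads 5′ to 3′ in the sense of the motif.
Abca1: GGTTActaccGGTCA
Srebf1: GGTTActggcGGTCA
Fasn: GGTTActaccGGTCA

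The windows that hold the Abca1 and Srebf1 sites are printed with the site in capitals on the gene's strand, where it reads as the reverse complement. The Abca1 window is chr4:53159896-53160145 on the minus strand of GRCm38.p6, and its site ends 52 bases before the listed start. The Srebf1 window is chr11:60210472-60210721 on the minus strand, and its site ends 167 bases before that start. A match is a description of the letters and shows no binding.
Abca1: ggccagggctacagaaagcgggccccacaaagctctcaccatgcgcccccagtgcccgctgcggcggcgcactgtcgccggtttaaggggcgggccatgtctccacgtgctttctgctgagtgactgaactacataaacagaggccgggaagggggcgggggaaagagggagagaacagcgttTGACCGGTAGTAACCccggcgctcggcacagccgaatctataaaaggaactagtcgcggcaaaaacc
Srebf1: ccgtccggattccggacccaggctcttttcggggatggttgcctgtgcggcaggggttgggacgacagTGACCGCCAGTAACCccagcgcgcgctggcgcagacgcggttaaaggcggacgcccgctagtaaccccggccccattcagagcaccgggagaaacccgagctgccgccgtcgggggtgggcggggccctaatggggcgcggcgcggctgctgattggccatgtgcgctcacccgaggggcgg

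All 10 genes passed the filter on low values, a mean of at least 10 normalized counts. By the authors' scaling 3 of them were higher in HF (Mylip, Abcg1 and Nr1h2), 5 were lower (Scarb1, Nr1h3, Apoe, Srebf1 and Arl4c), and Abca1 and Lpcat3 did not pass an adjusted p of 0.05 in limma. Over all 14936 genes tested, 26.2% were higher and 28.7% were lower. The HF and LF values of 8 of the 10 did not overlap, 3 of them higher and 5 lower in HF, where 62.2% of all genes tested did not overlap (28.4% higher and 33.7% lower). The median log2 difference of the 10 was -0.65, against -0.16 over all genes tested. The libraries labelled LF summed to fewer normalized counts (12742618 to 13085106) than the HF libraries (17926505 to 19520195). Setting all libraries to equal totals moved the median of all genes by -0.51, cut the share of calls that were higher from 47.7% to 30% (60.2% of all genes tested were called, 18.1% higher and 42.1% lower), and left 1 of the 10 genes higher and 6 lower. The authors' deposited table puts 8 of the 10 under an adjusted p of 0.05, the same 8 with the same signs.

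**Figure D1:**
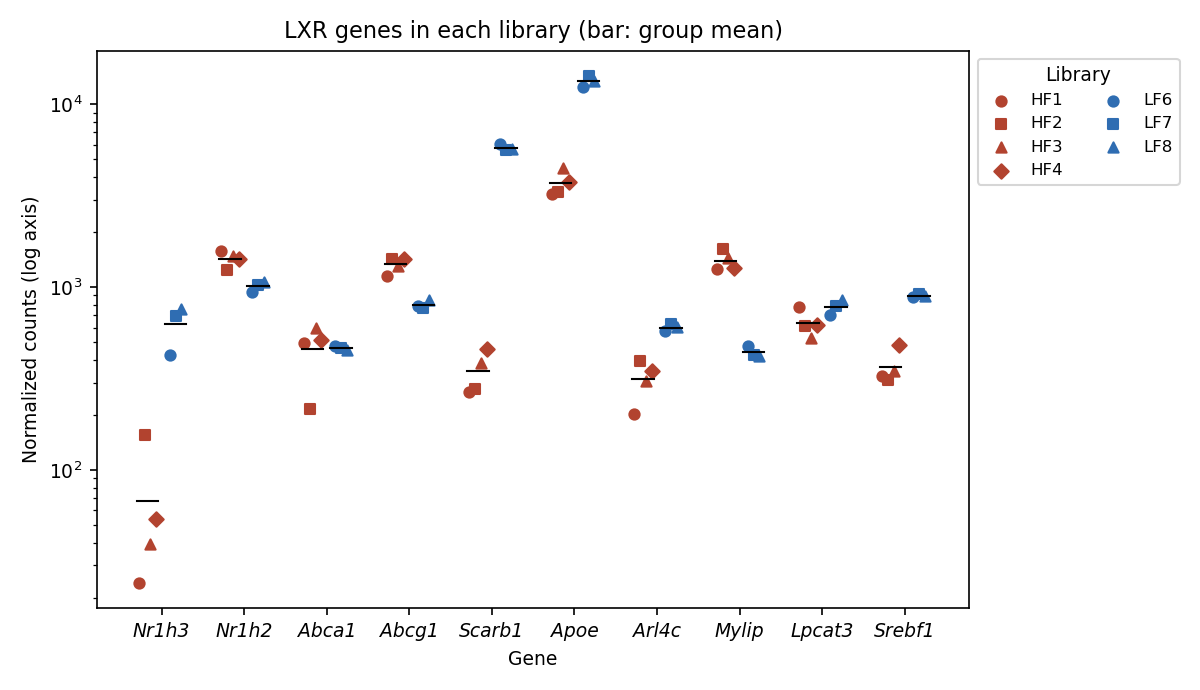
Normalized counts (log axis) of the 10 LXR genes in each of the 4 HF libraries (red) and the 3 libraries labelled LF (blue), with a bar at each group mean. Scarb1 and Nr1h3 lie far lower in HF, Mylip, Abcg1 and Nr1h2 lie higher by the authors' scaling (the direction of Nr1h2 turned with equal library totals), and the Abca1 and Lpcat3 groups overlap.

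The 2 receptors went opposite ways by the authors' scaling. Nr1h3 (ENSMUSG00000002108) encodes LXR alpha, the form abundant in macrophages and liver. It stood at 24.2, 154, 39.2 and 53.9 normalized counts in HF1 to HF4 and at 427, 694 and 753 in LF6, LF7 and LF8. Every HF library was below every library labelled LF. Means were 67.9 ± 58.8 (SD, n = 4) for HF and 625 ± 174 (SD, n = 3) for LF, a log2 difference of -3.49 ± 0.58 (SE; limma adjusted p = 0.0014). The HF values rest on 21, 120, 35 and 42 reads. The exact 95% Poisson interval of HF2, 128 to 184, lies above those of the other HF libraries, the nearest being 38.8 to 72.8 in HF4 (counting error only). Without HF2 the difference was -3.99.

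Nr1h2 (ENSMUSG00000060601) encodes LXR beta, the form made by most cell types. It stood at 1578, 1237, 1472 and 1432 in HF1 to HF4 and at 937, 1022 and 1062 in LF6, LF7 and LF8. All HF libraries were above all libraries labelled LF, by a log2 difference of 0.50 ± 0.12 (SE; limma adjusted p = 0.0070). With equal library totals this difference was -0.019 (limma adjusted p = 0.90), so its direction rests on the scaling.

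The ratio of the receptors within a library does not depend on the scaling. Nr1h3 over Nr1h2 was 0.0153, 0.125, 0.0267 and 0.0376 in HF1 to HF4 and 0.456, 0.678 and 0.709 in LF6, LF7 and LF8. Each HF library was below each library labelled LF. The log2 ratio differed by -3.99, with group means of -4.72 ± 1.26 (SD, n = 4) and -0.73 ± 0.35 (SD, n = 3) (two-sided exact permutation p = 0.057, and 0.076 adjusted over 4 ratios). The smallest p that 35 assignments allow is 0.029. In the same libraries the markers of monocytes and interstitial macrophages had a median difference of -2.66 on the log2 scale, and their part in this ratio was not tested.

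Of the ABC transporters that load cholesterol onto acceptors, Abcg1 was higher in HF by the authors' scaling and Abca1 did not pass the test. Abca1 (ENSMUSG00000015243) hands cholesterol to lipid-poor apolipoprotein A-I. It stood at 497, 216, 600 and 511 in HF1 to HF4 and at 476, 464 and 453 in LF6, LF7 and LF8. HF2 was the lowest of the 7 libraries and the other 3 HF libraries were the highest, so the groups overlap. The log2 difference was -0.12 with a 95% interval of -0.90 to 0.65 (limma adjusted p = 0.77). Without HF2 it was 0.20, and by quantile normalization 0.22, with neither past the threshold. HF2 was both the lowest HF library in Abca1 and the highest in Nr1h3, a pattern of 1 library.

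Abcg1 (ENSMUSG00000024030) moves cholesterol to mature high-density lipoprotein and is prominent in alveolar macrophages. It stood at 1153, 1430, 1306 and 1425 in HF1 to HF4 and at 788, 766 and 852 in LF6, LF7 and LF8. The groups did not overlap, and HF was higher by 0.72 ± 0.12 on the log2 scale (SE; limma adjusted p = 0.0011). HF1 had the lowest Abcg1 of the 4, and without HF1 the difference was 0.79. The part of alveolar macrophages in the Abcg1 difference was not tested. With equal library totals the difference was 0.20 and missed the threshold (limma adjusted p = 0.16).

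Abca1 over Abcg1 was 0.431, 0.151, 0.459 and 0.358 in HF1 to HF4 and 0.604, 0.606 and 0.532 in LF6, LF7 and LF8. It was lower in each HF library than in any library labelled LF, by -0.85 on the log2 scale (two-sided exact permutation p = 0.086, also 0.086 adjusted over 4 ratios). Without HF2 this was -0.49.

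Scarb1 (ENSMUSG00000037936) had the largest difference of the 10 genes by the authors' scaling. It encodes scavenger receptor BI, which exchanges cholesteryl esters and cholesterol with high-density lipoprotein in both directions. It stood at 267, 278, 386 and 455 in HF1 to HF4 and at 6065, 5590 and 5706 in LF6, LF7 and LF8. The LF mean was 16.7 times the HF mean, and the log2 difference was -4.09 ± 0.20 (SE; limma adjusted p = 1.3e-06). Over the alternatives it ranged from -4.61 to -3.98. Abca1 over Scarb1 was 1.86, 0.778, 1.56 and 1.12 in HF1 to HF4 and 0.0784, 0.0830 and 0.0795 in the libraries labelled LF. This log2 ratio differed by 3.97 (two-sided exact permutation p = 0.029, the smallest possible, and 0.057 adjusted over 4 ratios).

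Apoe (ENSMUSG00000002985) encodes apolipoprotein E, a secreted acceptor of exported cholesterol made by macrophages. It stood at 3223, 3320, 4476 and 3759 in HF1 to HF4 and at 12372, 14242 and 13420 in LF6, LF7 and LF8. The HF libraries were all lower, by a log2 difference of -1.86 ± 0.12 (SE; limma adjusted p = 6.4e-06), and the LF mean was 3.61 times the HF mean. Arl4c (ENSMUSG00000049866), a small GTPase linked to ABCA1-dependent efflux, stood at 203, 393, 306 and 346 in HF1 to HF4 and at 574, 624 and 602 in LF6, LF7 and LF8. HF was lower in every library, with HF1 the lowest, by a log2 difference of -0.98 ± 0.23 (SE; limma adjusted p = 0.0081).

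Mylip (ENSMUSG00000038175) was the member with the largest increase in HF. It encodes IDOL, a ubiquitin ligase induced by LXRs that limits lipoprotein uptake. It stood at 1257, 1611, 1435 and 1266 in HF1 to HF4 and at 478, 423 and 419 in LF6, LF7 and LF8. The HF mean was 3.16 times the LF mean, a log2 difference of 1.65 ± 0.13 (SE; limma adjusted p = 2.3e-05). Neutrophil markers were higher and monocyte markers lower in the same HF libraries, and their part in the Mylip difference was not tested. Mylip was the 1 member still higher with equal library totals, by 1.14 (limma adjusted p = 0.00025).

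Srebf1 (ENSMUSG00000020538) encodes SREBP-1, which drives fatty acid synthesis and whose SREBP-1c form is induced by LXR. It stood at 327, 309, 349 and 484 in HF1 to HF4 and at 879, 920 and 888 in LF6, LF7 and LF8. All HF libraries were lower, by a log2 difference of -1.31 ± 0.18 (SE; limma adjusted p = 0.00046). The gene counts do not separate its isoforms. Of its exon bases in GENCODE M21, 1.94% lie opposite exons of Rai1, and the strand setting of the counting is not given in the sources used here. Mylip over Srebf1 was 3.84, 5.22, 4.12 and 2.62 in HF1 to HF4 and 0.544, 0.460 and 0.472 in LF6, LF7 and LF8, a log2 difference of 2.96 (two-sided exact permutation p = 0.029, the smallest possible, and 0.057 adjusted over 4 ratios). Per kb of exon, Mylip averaged 431 and Srebf1 65.2 normalized counts in HF, against 136 and 159 in the libraries labelled LF.

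Lpcat3 (ENSMUSG00000004270) puts polyunsaturated fatty acids into membrane phospholipids. It stood at 775, 615, 527 and 621 in HF1 to HF4 and at 705, 790 and 847 in LF6, LF7 and LF8. HF1 reached into the LF range, and the log2 difference was -0.31 with a 95% interval of -0.68 to 0.057 (limma adjusted p = 0.13). It passed without HF1 (-0.41, limma adjusted p = 0.039) and at equal library totals (-0.83, limma adjusted p = 0.0031). In GENCODE M21, 10.2% of its exon bases lie opposite exons of Emg1, whose means were 488 for HF and 1122 for LF, and reads of both genes cannot be told apart there if counting ignored strand.

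**Figure D2:**
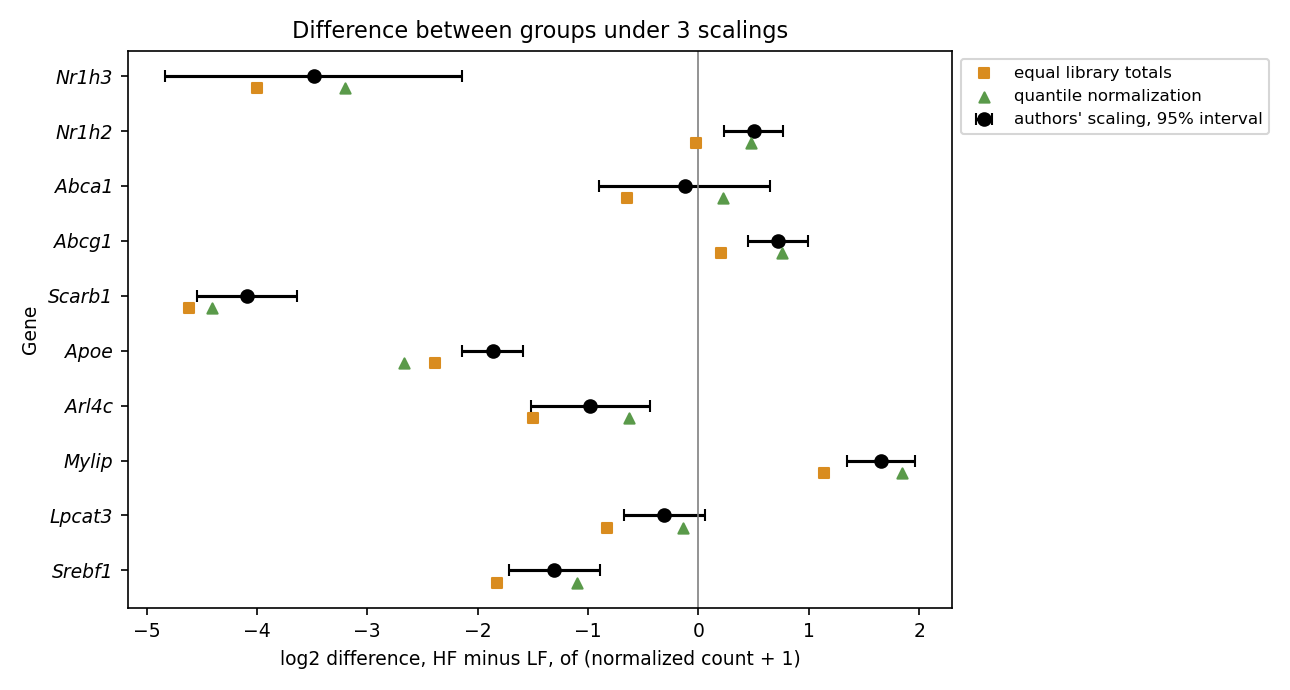
Log2 difference (HF minus LF) of each LXR gene by the authors' scaling with its 95% interval (black), with equal library totals (orange) and by quantile normalization (green). Mylip and Abcg1 stay above 0 under all 3 (Abcg1 is not past the threshold with equal library totals), Scarb1, Nr1h3, Apoe, Srebf1, Arl4c and Lpcat3 stay below 0, and Nr1h2 and Abca1 change sign with the scaling.

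**Figure D3:**
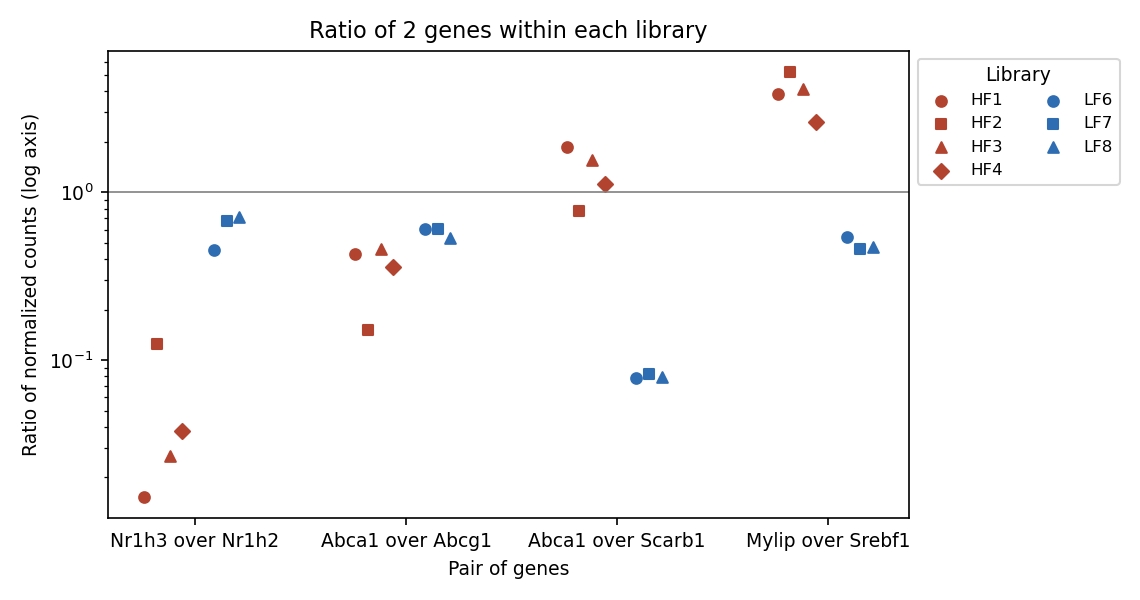
Ratio of the normalized counts of 2 genes within each library (log axis, grey line at 1), HF in red and the libraries labelled LF in blue. The groups do not overlap in any of the 4 ratios, and the HF libraries spread most in Nr1h3 over Nr1h2, from 0.0153 to 0.125.

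Levels of different genes were compared per kb of exon (GENCODE M21 exon length), which removes gene length but not the 3′ or 5′ bias of the library kit. In HF the order of mean normalized counts per kb was led by Apoe at 1728 ± 267 (SD, n = 4). Mylip at 431 ± 51.8 and Nr1h2 at 426 ± 42.5 came next and did not differ beyond their spread, and nor did Lpcat3 at 194 ± 31.5 and Abcg1 at 182 ± 17.9. Below them were Srebf1 at 65.2 ± 14.1, Arl4c at 56.8 ± 14.8, Abca1 at 44.0 ± 16.0, Scarb1 at 40.8 ± 10.6 and Nr1h3 at 27.0 ± 23.4. Neighbours among these lay within each other's SD, except that Nr1h3 lay outside the SD of Scarb1, while Scarb1 lay within that of Nr1h3. In the libraries labelled LF, Apoe led at 6242 ± 438 (SD, n = 3) and Scarb1 followed at 681 ± 29.2. Nr1h2 at 300 ± 19.0, Nr1h3 at 248 ± 69.1 and Lpcat3 at 239 ± 21.9 formed a middle group, with Nr1h3 within reach of both its neighbours. Srebf1 at 159 ± 3.78 and Mylip at 136 ± 10.2 stood above Abcg1 at 110 ± 6.14 and Arl4c at 109 ± 4.56, which did not differ beyond their spread, and Abca1 was lowest at 44.8 ± 1.08. Apoe was the highest member in both groups. By mean counts per kb, Scarb1 ranked 2 of the 10 in the libraries labelled LF and 9 in HF, and Mylip ranked 7 and 2.

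Other genes of the pathway came from 5 lists chosen by function. Of 71 genes listed, 57 passed the filter, 11 stood below it, and Abcg8, Cetp and Hsd3b7 were not analysed here. By the authors' scaling 16 of the 57 were higher in HF, 21 were lower and 20 did not pass. That is 64.9% past the threshold, where 55% of all genes tested were (26.2% higher and 28.7% lower). With equal library totals 10 were higher and 30 lower, where 18.1% of all genes tested were higher and 42.1% lower. The counts of each list below are by the authors' scaling and stand beside the same shares, 26.2% higher and 28.7% lower. Of each list, genes among the 4 with the highest mean level are given in turn.

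Of 15 LXR partners and coregulators tested, 6 were higher and 5 lower, with a median log2 difference of 0.11. The corepressor Ncor1 had means of 10728 ± 1344 (SD, n = 4) for HF and 3300 ± 49.6 (SD, n = 3) for LF, a log2 difference of 1.69 ± 0.10 (SE; limma adjusted p = 4.6e-06). Tbl1xr1, a subunit of the NCoR complex, was higher by 0.78, and Pias1, a SUMO ligase, by 0.66, though Pias1 did not pass with equal library totals (0.14). The coactivator Ncoa3 averaged 2884 and 2646 and missed the threshold (limma adjusted p = 0.55). Of the retinoid X receptors, also chosen after their values were seen, Rxra averaged 285 and 420 and Rxrb 1536 and 1250, and neither passed (limma adjusted p = 0.13 for both).

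Of 11 further LXR targets tested, limma called 0 higher and 4 lower (Scd2, Lpl, Fasn and Smpdl3a), with a median of -1.40. The count of higher genes was also 0 at an unadjusted p under 0.05 and in edgeR and DESeq2. Smpdl3a, a phosphodiesterase gene placed on this list, had means of 4505 for HF and 11428 for LF, a log2 difference of -1.39 ± 0.20 (SE; limma adjusted p = 0.00061). Lpl, the lipoprotein lipase, stood at 790, 64.3, 133 and 100 in HF1 to HF4 and at 2694, 2425 and 1695 in LF6, LF7 and LF8, a log2 difference of -3.78 (limma adjusted p = 0.0036). Chil3 was also highest in HF1, while Fabp4 and Pparg were lowest there. Without HF1 the Lpl difference was -4.54, and the part of alveolar macrophages in it was not tested. The phospholipid transfer protein Pltp ranged from 114 to 1878 within HF and from 1711 to 1914 in LF, and missed the threshold (limma adjusted p = 0.083). It passed without HF3 (-2.80, limma adjusted p = 0.014). The transglutaminase Tgm2 averaged 1836 and 1434 and missed the threshold (limma adjusted p = 0.12), and its difference of 0.39 became -0.13 at equal library totals and 0.61 without LF8, where it passed (limma adjusted p = 0.016). Fasn, which shares the promoter letters of Abca1, averaged 99.0 and 578, a log2 difference of -2.77 (limma adjusted p = 0.0016), while Abca1 averaged 456 and 464.

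Of 5 genes of oxysterol synthesis and removal tested, limma called 0 higher (also 0 at an unadjusted p under 0.05 and in edgeR, and 1, Cyp11a1, in DESeq2) and 4 lower, with a median of -4.49. Cyp27a1, which makes the LXR ligand 27-hydroxycholesterol in mitochondria, stood at 57.6, 64.3, 70.6 and 168 in HF1 to HF4 and at 4009, 3747 and 3831 in LF6, LF7 and LF8. That is a log2 difference of -5.55 ± 0.35 (SE; limma adjusted p = 6.0e-06), with the LF mean 42.8 times the HF mean. Cyp11a1 stood at 89.9, 0, 234 and 1.28 in HF1 to HF4 and at 2.25, 0.751 and 0 in the libraries labelled LF, and did not pass in limma (limma adjusted p = 0.22), while DESeq2 called it (adjusted p = 0.0030). Ch25h, the macrophage cholesterol 25-hydroxylase, was below the filter, with 51.9, 10.3, 0 and 0 normalized counts in HF1 to HF4 and 0 in each library labelled LF. That places its HF mean at least 21.3-fold higher (set against 3 reads for LF as a whole, counting error only), with HF1 giving most of it.

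Of 19 genes of intracellular cholesterol handling, 7 were higher and 4 lower, with a median of -0.14. Gramd1a, a carrier of cholesterol from the plasma membrane to the endoplasmic reticulum, had means of 6613 ± 466 (SD, n = 4) for HF and 1741 ± 157 (SD, n = 3) for LF, a log2 difference of 1.93 ± 0.09 (SE; limma adjusted p = 1.2e-06). Osbpl9, a sterol-binding protein gene, averaged 10352 and 3607, 2.87 times as much in HF (limma adjusted p = 4.6e-05). Abca7, a close relative of Abca1, was higher by 0.40 (limma adjusted p = 0.0050), but its direction turned to -0.12 with equal library totals and to -0.32 by quantile normalization. Soat1, which esterifies cholesterol for storage, had means of 4399 for HF and 6042 for LF and missed the threshold (-0.50, limma adjusted p = 0.055). It passed under 5 of 16 alternatives, among them without HF4 (-0.65, limma adjusted p = 0.0078).

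Of 7 lipoprotein receptor genes and their partners tested, 3 were higher and 4 lower, with a median of -1.03. The receptor Lrp1, which takes up apolipoprotein E, averaged 490 and 12068, a log2 difference of -4.79 ± 0.39 (SE; limma adjusted p = 2.5e-05). The macrophage scavenger receptor Msr1 averaged 128 and 3653, a log2 difference of -5.34. The sorting receptor Sort1 was higher by 0.62 (limma adjusted p = 0.00033), but did not pass with equal library totals (0.10) or by quantile normalization (0.052). Lrp8, a receptor that IDOL degrades and a gene chosen after its values were seen, had means of 199 for HF and 62.2 for LF, 3.20 times as much in HF (limma adjusted p = 0.0069).

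**Figure D4:**
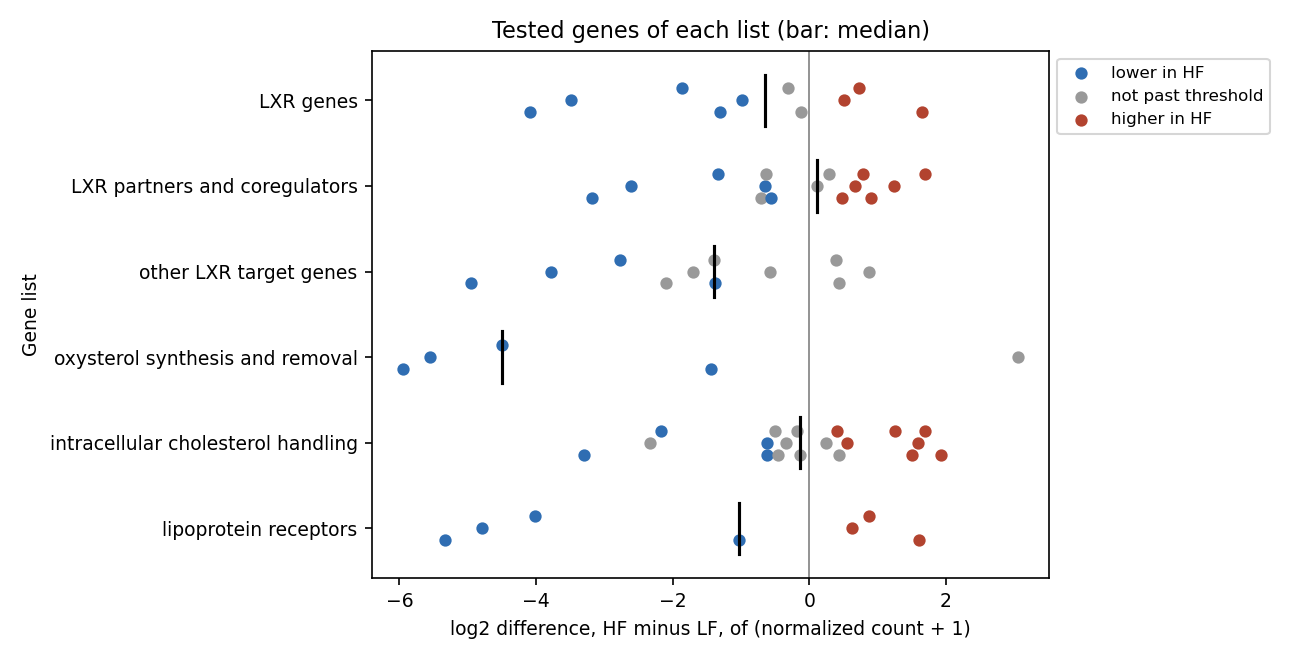
Log2 difference (HF minus LF, authors' scaling) of every tested gene of the LXR set and of the 5 pathway lists, coloured by whether limma called it, with a bar at each list's median. The further LXR targets and the oxysterol genes show no red point (limma), while partners and intracellular handling genes lie on both sides of 0.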

How the data were processed

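RNA of sorted lung cells was extracted with TRIzol LS and made into 4 HF and 3 LF SMART-Seq libraries, per the labels' protocols. Tools named in the submitters' processing notes are DESeq2 1.20.0, featureCounts 1.6.3 and STAR 2.6.1b; the sources used here give no build, annotation or strand setting. The deposited table's name calls its library values normalized counts (a signal). In each library 100% of values lay within 0.01 of a whole multiple of 1 read's worth, which gave back whole reads. Further columns, per the file headers, are the authors' log2 fold changes and errors, their test score and their p-values, cited only as the authors' deposited table. HF columns match their samples by name. Columns LF6, LF7 and LF8 match no LF sample's number and were taken as libraries of that group (0 columns left unmapped). Nothing states whether libraries of a group share a cage or day, so p-values measure the spread between these mice.

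The comparison of HF and LF used limma 3.58.1 (R 4.3.3, trend=TRUE) on log2(normalized count + 1) for the 14936 genes whose mean was 10 or more, adjusted by Benjamini-Hochberg over all of them, threshold 0.05. Fold changes on this scale understate those of low genes. On recovered reads edgeR 4.0.16 called 7651 genes with TMM and 7624 by the size factors of the authors, and DESeq2 1.42.0 called 8472, against 8211 in limma. Ratios of 2 genes within a library were compared by exact permutation over 35 assignments. The limma, edgeR and DESeq2 fits were checked on simulated data. Exon lengths and overlaps came from GENCODE M21 (35597 of 35641 gene IDs matched), and promoters from RefSeq on GRCm38.p6, read only as sequence. Members and lists were chosen with earlier results of these data known. Named genes were all 10 members, the 4 genes of highest mean in each of 5 pathway lists, and the 2 of highest mean in each of 10 cell type lists. Genes outside this rule (Ly6g, Ltf, Camp, Ngp, Lcn2, Atp6v0d2, Krt79, Ctsk, Fabp1, Ear1, Siglecf, Fabp4, Pparg, Marco, Car4, Emg1, Scd2, Fasn, Ch25h, Rxra, Rxrb, Lrp8, Acsl3, Tmco4 and Haao) were chosen after their values were seen. Some genes that this rule names are not reported here. The alternatives changed the pseudocount (0.5 or 5), the filter (none, or a mean of 50 or more), the scaling (equal totals or quantiles) or the tool (edgeR or DESeq2), or left 1 library out. Reads carry no molecular identifiers, so intervals from them cover counting error only. Figures were drawn with matplotlib 3.10.9.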

Additional observations from a re-analysis of the deposited data

Results flagged for a closer look

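In groups of 4 libraries, a library was singled out where its gap to the nearest other exceeded Dixon's 95% critical share of the group's range, which chance does in about 1 in 20 groups. Of 50 genes checked in HF, 6 had such a library, and none of them was one of the 10 LXR genes. In HF1, Lpl stood at 790 against 64.3 to 133 in the other HF libraries. Chil3, from the alveolar macrophage list, stood there at 30151 against 6508 to 9035. It also stood at 18663 to 20453 in the libraries labelled LF, where Siglecf of the same list stood at 19.5 to 89.3. In HF4, Tbl1xr1 stood at 5254 against 3949 to 4082, and Cyp27a1 at 168 against 57.6 to 70.6. In HF3, the platelet chemokine Ppbp stood at 1612 against 214 to 354, and Vwf, of endothelium and platelets, at 479 against 57.7 to 107.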

How the results depend on the processing

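Over 16 alternatives the count of all genes past the threshold ran from 6450 to 8991 (8211 as reported), and 6 of the 10 LXR genes (Nr1h3, Mylip, Apoe, Srebf1, Arl4c and Scarb1) kept their direction and their side of the threshold in every one. Equal library totals, which lower the HF libraries against LF by construction, left 1 LXR gene higher in place of 3 and 10 pathway genes in place of 16. Over all genes tested, 18.1% were higher by that scaling in place of 26.2%. With 1 library left out, 3 LXR genes were higher and 5 to 6 lower, 15 to 17 pathway genes were higher and 18 to 23 lower, and all genes past the threshold numbered 6450 to 8464. The log2 differences of the ratios were then -4.56 to -3.57 (Nr1h3 over Nr1h2), -1.02 to -0.49 (Abca1 over Abcg1), 3.78 to 4.20 (Abca1 over Scarb1) and 2.81 to 3.14 (Mylip over Srebf1). With a pseudocount of 5, Nr1h3 over Nr1h2 (-3.87), Abca1 over Scarb1 (3.95) and Mylip over Srebf1 (2.94) passed (exact permutation, p = 0.038 adjusted over 4 ratios for each). With a pseudocount of 1, Abca1 over Scarb1 and Mylip over Srebf1 already had the smallest possible exact permutation p, 0.029. Their adjusted p fell only through the shared adjustment, as the exact permutation p of Nr1h3 over Nr1h2 fell from 0.057. Directions turned with equal library totals for Nr1h2 (-0.019), Ncoa3 (-0.41), Tgm2 (-0.13), Abca7 (-0.12), Pecam1 (-0.48), Vwf (-0.0969), Il7r (-0.49), Ighm (-0.47) and Cd79b (-0.34), and by quantile normalization for Abca1 (0.22), Ncoa3 (-0.32), Abca7 (-0.32) and Ighm (-0.74). With 1 library left out they turned for Abca1 (-0.29 to 0.20), Ncoa3 (-0.0089 to 0.20), Pecam1 (-0.14 to 0.22), Vwf (-0.20 to 0.81), Il7r (-0.37 to 0.40) and Ighm (-0.089 to 0.24). Of 798 values of 50 genes under the alternatives, 738 kept direction and side. No paired analysis was possible because the LF columns carry numbers that match neither the LF samples nor the HF columns. Depth limits Nr1h3 in HF, which rests on 21 to 120 reads per library.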

Other observations

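Markers of further cell types are given by limma and the authors' scaling. Over all genes tested, 26.2% were higher in HF and 28.7% lower by the same measure. Of 10 alveolar macrophage markers 3 were higher in HF and 2 lower, with Ear2 lower by a log2 difference of -2.11 and Chil3 not past the threshold. Of 9 epithelial markers 4 were higher and 1 lower. The club cell gene Scgb1a1 differed by 2.40 on the log2 scale, and the surfactant gene Sftpc by 1.51, a call lost under 7 of 16 alternatives. Of 6 platelet markers 5 were higher, among them Ppbp (a log2 difference of 2.51) and Pf4 (1.94, a call lost under 7 of 16 alternatives). Of 3 eosinophil markers 2 were higher, Ccr3 by 3.67 and Il5ra by 2.49. Of 7 dendritic cell markers 1 was higher (Ccr7, 1.16, a call lost under 2 of 16 alternatives) and 3 were lower, Cd209a by a log2 difference of -4.11. Of 6 endothelial markers 2 were lower, while edgeR called 0 and DESeq2 1, and Pecam1 and Vwf did not pass. Of 9 T and NK cell markers limma called 0, with 2 lower at an unadjusted p under 0.05 and 0 called by edgeR and DESeq2. Of 5 B cell markers limma called 0, with 0 at an unadjusted p under 0.05, 0 by edgeR and 1 higher by DESeq2.

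The narrower promoter motif was in windows of 12 genes, of which 6 were tested. It was written with the Abca1 promoter in view, so the counts that follow describe the 6 genes and do not test the motif. Limma called 3 of them lower (Srebf1, Fasn and Tmco4) and 0 higher, where 28.7% of all genes tested were lower and 26.2% higher, and Abca1, Acsl3 and Haao did not pass, with log2 differences of -0.12, -2.59 and -0.29.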
